A study of Homo sapiens with 20 samples.

Results

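In RKO cells given olaparib, knockdown of METTL3 went with a longer list of open chromatin regions. The shMETTL3 list held 35455 intervals, and 11723 of them had no overlap with the shControl list. The shControl list held 25855 intervals, and 2707 of them had no overlap with the shMETTL3 list. Intervals without a partner in the other list were narrower and lower in peak score in the median than those with one. They lay mostly away from gene ends, while the ends of most genes that had an interval in either list had one in both, METTL3 and PARP1 among them. The comparison covers these 61310 intervals out of 292390 in the 10 deposited lists.

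METTL3 is the catalytic subunit of the enzyme complex that writes N6-methyladenosine (m6A), the most common internal mark on messenger RNA, which reader proteins bind and demethylases remove. The mark is also laid on RNA that is still attached to chromatin, including transcripts of LINE1 retrotransposons. Olaparib blocks the poly(ADP-ribose) polymerases PARP1 and PARP2, which sense DNA strand breaks, and it holds them on DNA, so that cells come to depend on homologous recombination. ATAC-seq uses a transposase that inserts sequencing adapters into DNA not covered by nucleosomes or other proteins, and a peak caller turns the density of inserts into a list of intervals.

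RKO is an established human colon carcinoma cell line. The first group was RKO cells with a short hairpin RNA against METTL3 (shMETTL3) and olaparib, and it was set against RKO cells with a control hairpin (shControl) and olaparib, with 2 samples listed for each. Both groups thus share the olaparib treatment, whose dose and duration the labels do not give. Untreated RKO cells with shMETTL3 (2 samples) and with shControl (4 samples, of which 2 carry a second batch label), and the same groups of LOVO, a second colon carcinoma line, served only for orientation. The series concerns how removal of m6A from LINE1 RNA bears on chromatin and on the response to blocked DNA repair. Each deposited list stands for a whole group, so values per replicate are lacking, groups could not be tested against each other, and every difference below has no replicate check. Depth is unknown from peak lists, and an interval missing from a list does not show that chromatin there was closed.

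An interval was called shared when at least 1 bp of it overlapped an interval of the other list, gained when only the shMETTL3 list had it, and lost when only the shControl list had it. The shMETTL3 list covered 12.3 Mb and the shControl list 10.6 Mb, a ratio of 1.16, against a ratio of 1.37 for the number of intervals. Median width was 276 bp (69 to 2395 bp) in the shMETTL3 list and 330 bp (82 to 2067 bp) in the shControl list. The score is the value deposited with each peak, with a median of 8.28 (1.75 to 47.9) in the shMETTL3 list and 7.88 (2.25 to 45.3) in the shControl list. As a check of the cell type, 8 of 24 intestinal epithelial marker genes had an interval at a gene end in the shMETTL3 list and 7 of 24 in the shControl list. The intestinal master regulator CDX2, the epithelial surface protein EPCAM, the keratins KRT8 and KRT18, HNF4G, GATA6 and CLDN3 had one in both lists. The adhesion protein CDH1, the brush border protein VIL1 and the keratin KRT20 had one in neither. Of the leukocyte markers 5 of 14 had an interval in each list, CD8A and SPI1 among them, and the pan-leukocyte gene PTPRC had none.

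Promoter windows that an interval of only one list overlapped show which DNA a gain or a loss concerned. Of the genes shown, FANCM is a translocase of the Fanconi anaemia pathway, BBC3 encodes the p53-induced killer protein PUMA, RFC1 is the large subunit of the clamp loader of DNA replication, and RPS6 is a protein of the small ribosomal subunit. ZCCHC4 writes m6A on ribosomal RNA and HPRT1 salvages purines. The window of each runs from 250 bases before to 50 bases after an annotated start (RefSeq, GRCh38.p14), is written 5′ to 3′ on the strand of the gene, and has in capitals the bases that the deposited interval covered. FANCM (chr14:45135680-45135979, plus strand), BBC3 (chr19:47232618-47232917, minus strand), RFC1 (chr4:39366313-39366612, minus strand) and RPS6 (chr9:19380187-19380486, minus strand) were covered in the shMETTL3 list only, for 45, 147, 195 and 282 bases. ZCCHC4 (chr4:25312524-25312823, plus strand) and HPRT1 (chrX:134459915-134460214, plus strand) were covered in the shControl list only, for 259 and 234 of the 300 bases. HPRT1, RFC1 and RPS6 were chosen for printing after their values were seen.
FANCM: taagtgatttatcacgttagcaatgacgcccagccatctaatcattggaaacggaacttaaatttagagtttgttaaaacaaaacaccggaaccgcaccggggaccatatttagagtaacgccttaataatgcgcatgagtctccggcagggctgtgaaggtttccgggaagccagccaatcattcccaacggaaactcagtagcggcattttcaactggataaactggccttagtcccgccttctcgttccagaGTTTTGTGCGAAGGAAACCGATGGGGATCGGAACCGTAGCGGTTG
BBC3: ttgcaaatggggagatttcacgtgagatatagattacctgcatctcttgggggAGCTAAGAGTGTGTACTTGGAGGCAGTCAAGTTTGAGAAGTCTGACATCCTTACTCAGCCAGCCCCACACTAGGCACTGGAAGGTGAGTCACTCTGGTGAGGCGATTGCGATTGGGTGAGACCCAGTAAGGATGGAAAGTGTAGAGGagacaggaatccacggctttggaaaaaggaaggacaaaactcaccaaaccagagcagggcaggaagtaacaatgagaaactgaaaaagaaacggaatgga
RFC1: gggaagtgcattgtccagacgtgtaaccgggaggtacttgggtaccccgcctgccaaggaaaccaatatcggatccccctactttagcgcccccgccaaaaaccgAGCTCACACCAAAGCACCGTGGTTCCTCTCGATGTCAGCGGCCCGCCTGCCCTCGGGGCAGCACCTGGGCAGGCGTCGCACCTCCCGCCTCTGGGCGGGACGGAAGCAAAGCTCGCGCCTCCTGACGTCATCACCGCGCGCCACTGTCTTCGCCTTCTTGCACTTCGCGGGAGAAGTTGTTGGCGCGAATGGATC
RPS6: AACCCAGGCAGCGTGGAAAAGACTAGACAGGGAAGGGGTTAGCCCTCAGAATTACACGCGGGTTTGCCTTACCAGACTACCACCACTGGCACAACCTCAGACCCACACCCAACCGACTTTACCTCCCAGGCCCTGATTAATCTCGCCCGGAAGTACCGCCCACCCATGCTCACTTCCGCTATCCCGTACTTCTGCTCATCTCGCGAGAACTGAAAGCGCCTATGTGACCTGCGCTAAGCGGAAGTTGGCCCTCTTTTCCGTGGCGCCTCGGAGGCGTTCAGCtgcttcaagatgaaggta
ZCCHC4: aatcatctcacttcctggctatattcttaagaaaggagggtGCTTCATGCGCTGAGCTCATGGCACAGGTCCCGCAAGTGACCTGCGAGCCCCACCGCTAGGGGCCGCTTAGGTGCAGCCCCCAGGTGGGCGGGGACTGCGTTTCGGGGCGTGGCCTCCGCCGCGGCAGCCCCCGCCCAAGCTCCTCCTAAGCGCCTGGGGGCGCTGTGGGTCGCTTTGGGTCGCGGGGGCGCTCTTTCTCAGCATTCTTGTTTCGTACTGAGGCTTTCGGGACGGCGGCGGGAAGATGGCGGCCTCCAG
HPRT1: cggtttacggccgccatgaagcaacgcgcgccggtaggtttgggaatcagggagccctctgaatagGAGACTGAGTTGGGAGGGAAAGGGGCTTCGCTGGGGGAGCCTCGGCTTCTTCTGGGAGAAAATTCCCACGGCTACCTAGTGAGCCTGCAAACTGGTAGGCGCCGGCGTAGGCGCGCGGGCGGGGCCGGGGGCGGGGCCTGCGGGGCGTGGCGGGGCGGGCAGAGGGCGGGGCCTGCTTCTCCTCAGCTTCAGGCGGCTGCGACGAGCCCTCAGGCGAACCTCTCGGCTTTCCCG

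These windows differed in base composition. G and C made up 63.3% of the RFC1 window and 56.7% of the RPS6 window, against 48.0% of both the FANCM and the BBC3 window. CpG dinucleotides numbered 28 in RFC1, 19 in FANCM, 18 in RPS6 and 5 in BBC3. The lost windows of ZCCHC4 and HPRT1 held 65.3% and 68.7% G and C, with 25 and 30 CpG. On either strand, BBC3 held the AP-1 motif (TGACTCA or TGAGTCA), RFC1 the cyclic AMP response element (TGACGTCA) and RPS6 the ETS motif (CCGGAAG or CTTCCGG). Among all 22199 promoter windows of protein-coding genes, 4.01% held that AP-1 motif, 2.26% that response element and 12.8% that ETS motif.

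Gained intervals made up 33.1% of the shMETTL3 list (95% exact binomial interval 32.6 to 33.6%), and lost intervals 10.5% of the shControl list (10.1 to 10.8%). These intervals cover counting error only and say nothing of the spread between samples. The only pair of lists for 1 RKO group is that of the untreated shControl lists, which differ in form. The list with scores covers 7.54 Mb with a median width of 297 bp, and the merged list 15.2 Mb with 429 bp. Which of them holds the batch2 samples is not given. Between them, 11.5% of the intervals of the list with scores had no partner in the merged list, and 36.9% of the merged list had none in the list with scores, so unshared parts of this size also stood between lists of the same treatment and hairpin. When the shMETTL3 list was reduced to its 25855 highest scores, as many as the shControl list held, 6383 intervals were gained and 6700 lost. Lists of equal length give nearly equal numbers by construction, so this says how many intervals were unshared and not which list had more. With only intervals at or above the median score of the shControl list (7.88) kept in both lists, 7789 were gained and 1658 lost. An interval whose partner scored below the cut then counted as unshared.

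Unshared intervals were weaker and narrower in the median than shared ones. Gained intervals had a median score of 6.59 (quartiles 4.94 to 8.67) and a median width of 178 bp, against 9.31 and 356 bp for the shared intervals of the shMETTL3 list. Lost intervals had a median score of 5.47 (quartiles 4.47 to 6.88) and a median width of 204 bp, against 8.19 and 355 bp for the shared intervals of the shControl list. Of the lowest decile of the shMETTL3 list by score, 63.0% were gained, and of the highest decile 7.9%. Of the lowest decile of the shControl list 31.8% were lost, and of the highest 0.348%. By width, 78.0% of shMETTL3 intervals under 150 bp were gained and 0.917% of those of 600 bp or more, against 39.9% and 0.301% lost in the same classes of the shControl list.

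**Figure D1:**
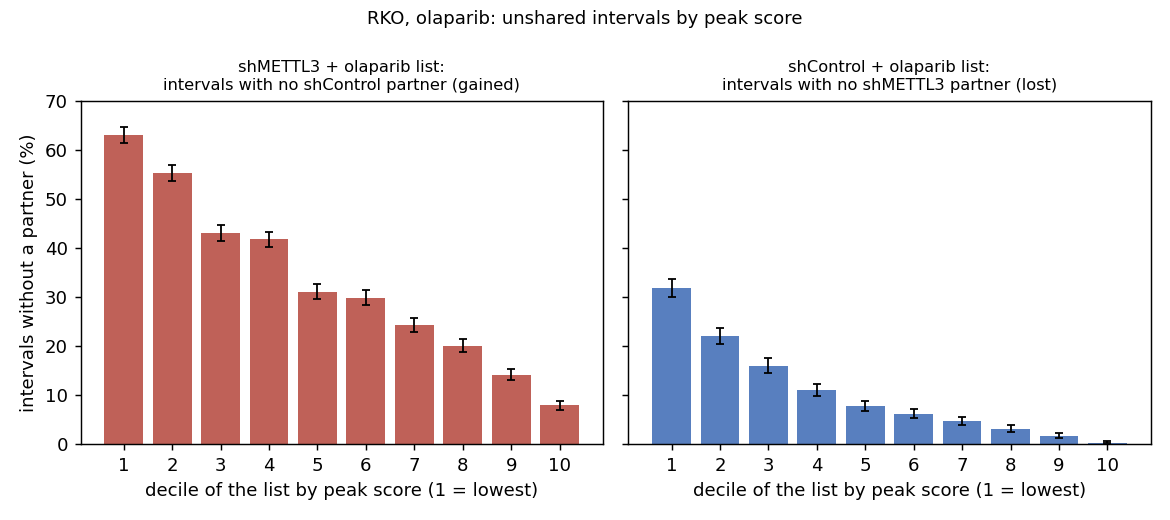
Share of intervals without a partner (percent, y axis) by decile of the list by peak score (x axis, 1 = lowest), for the shMETTL3 list on the left and the shControl list on the right; error bars are 95% exact binomial intervals. The share falls with rising score in both lists, with 63.0% in the lowest and 7.9% in the highest decile of the shMETTL3 list and 31.8% and 0.348% in those of the shControl list.

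Gene ends were more often kept than other places. An interval was placed at a gene end when it lay within 1000 bp of either end of a protein-coding gene, in a gene body when it lay inside a gene but farther from its ends, and between genes otherwise. Of shMETTL3 intervals, 16.9% at gene ends were gained, 40.8% in gene bodies and 43.8% between genes. Of shControl intervals, 5.75% at gene ends were lost, 14.9% in gene bodies and 12.9% between genes. Among intervals of like score, those at gene ends were likewise less often unshared in the fifth decile, while gene bodies and stretches between genes kept no fixed order. In that decile, 9.87% of shMETTL3 intervals at gene ends were gained, against 40.4% in gene bodies and 47.9% between genes, and 2.03% of shControl intervals at gene ends were lost, against 11.7% in gene bodies and 12.9% between genes. In the highest decile 1.09% of shMETTL3 intervals at gene ends were gained, against 9.12% in gene bodies, and of shControl intervals 0.238% at gene ends, 0.457% in gene bodies and 0.344% between genes were lost, shares whose exact intervals overlap. Width was not matched. Among one-to-one pairs of shared intervals, the median shMETTL3 width was 487 bp at gene ends, 292 bp in gene bodies and 290 bp between genes. Whether place mattered among intervals of like width was not tested.

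**Figure D2:**
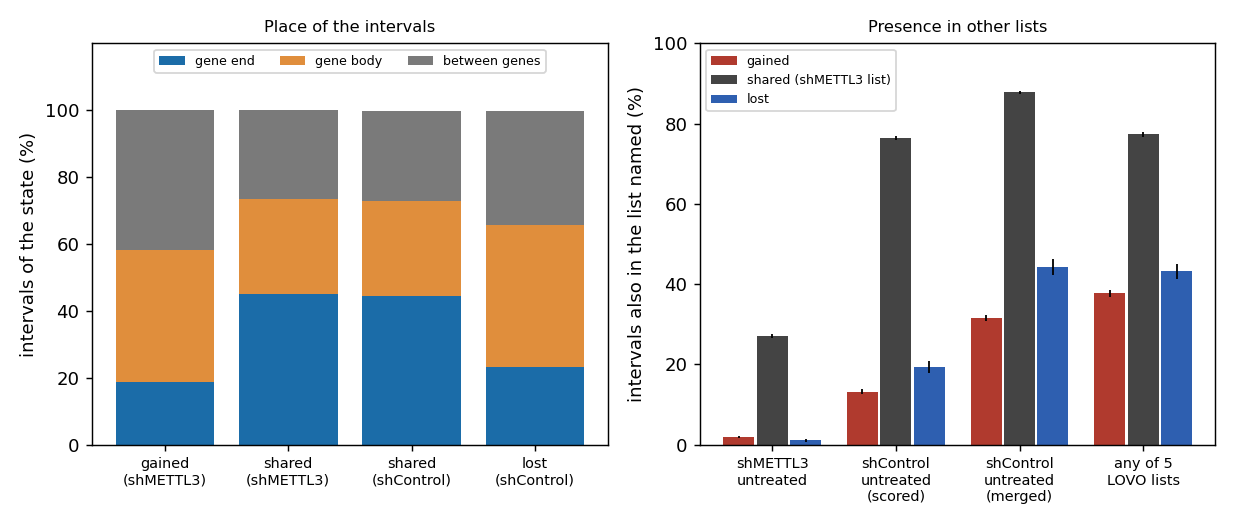
Left, place of gained, shared and lost intervals (percent of the intervals of each state, y axis) with gene ends, gene bodies and stretches between genes stacked. Right, share of gained, shared and lost intervals (percent, y axis) that overlapped the list named on the x axis, with 95% exact binomial intervals; gained intervals lie at gene ends in 18.7% of cases against 45.2% of shared ones, and 31.6% of gained against 87.8% of shared intervals lay in the merged untreated shControl list.

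Gains and losses were spread over all autosomes and X. Chromosome Y held too few intervals and was left out. The gained share was lowest on chromosome 17, at 29.2%, and highest on X, at 41.1%, and the lost share ran from 6.96% on chromosome 22 to 13.9% on X. Most unshared intervals stood by themselves. The nearest interval of the shControl list lay at a median distance of 20.7 kb from a gained interval, with 15.0% within 1 kb and 30.8% beyond 50 kb. For lost intervals the nearest shMETTL3 interval lay 9.98 kb away in the median, with 23.9% within 1 kb and 16.4% beyond 50 kb. Only 17 gained and 13 lost intervals had a partner within 10 bp that they missed, and 37 shared shMETTL3 intervals overlapped their partner by 10 bp or less.

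Part of the gained intervals was present in untreated cells. Of the gained intervals, 1.81% overlapped the untreated shMETTL3 list, which held 6916 intervals, 13.2% the untreated shControl list with scores and 31.6% the merged one. Together, 37.0% of gained intervals lay in at least 1 untreated shControl list, against 92.3% of the shared intervals. For lost intervals this share was 51.5%. In any of the LOVO lists lay 37.7% of the gained, 77.3% of the shared and 43.2% of the lost intervals. In neither an untreated RKO list nor a LOVO list lay 5373 gained intervals (45.8%) and 905 lost intervals (33.4%).

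The same contrast in LOVO shared few of these intervals. There, 20825 shMETTL3 intervals were gained under olaparib, and 1787 of the RKO gains overlapped one of them, which is 15.2% of the gains in RKO and 8.58% of those in LOVO. Shared RKO intervals overlapped a LOVO gain in 14.4% of cases, a share close to that of the RKO gains. Of the lost intervals, 64 overlapped a LOVO loss, 2.36% of the losses in RKO and 2.99% of those in LOVO, beside 1.37% of the shared intervals of the RKO shControl list. More of the RKO losses, 376 (13.9%), overlapped a LOVO gain, beside 14.7% of the shared intervals of that list. Among genes, 163 gained a gene-end interval in both lines (20.4% of the RKO and 13.4% of the LOVO gains) and 9 lost one in both (4.79% and 5.62%). In opposite directions, 15 genes gained one in RKO and lost one in LOVO, and 34 lost one in RKO and gained one in LOVO.

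At the level of genes, 11097 of 20037 protein-coding genes had an interval at a gene end in the shMETTL3 list and 10485 in the shControl list. Both lists had one at 10297 genes. A gene-end interval was gained at 800 of the 9552 genes without one in the shControl list (8.38%) and lost at 188 of the 10485 genes with one (1.79%). Among the 2341 genes that lacked one in the shControl list but had one in another list of the series, 686 were gained (29.3%), and 114 gained genes had one in no other list. With only scores at or above the shControl median in both lists, 1891 genes were gained and 487 lost. With the shMETTL3 list reduced to the length of the shControl list, a step that can only take away gains and add losses, 350 genes were gained and 1566 lost. Of the 800 gained genes 525 (65.6%) had an interval in an untreated shControl list, and of the 188 lost genes 122 (64.9%), against 98.9% of the genes kept.

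Gene ends that were gained or lost carried weaker peaks than those kept. The best score at a gained gene had a median of 5.89, against 9.46 at kept genes of the shMETTL3 list. At lost genes it was 5.13, against 8.32 at kept genes of the shControl list. Where the strand was known, the interval lay at the start of 82.9% of 601 gained genes, 77.6% of 152 lost genes and 97.0% of kept genes, so that 17.1% of the gained genes had one only at the far end.

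METTL3 itself kept its promoter interval. The shMETTL3 list had chr14:21510879-21511556 (678 bp, score 18.2, percentile 97.0 of that list) and the shControl list chr14:21511100-21511511 (412 bp, score 14.3, percentile 94.2 of that list). The hairpin acts on the transcript, so this interval does not check the knockdown. PARP1, the main target of olaparib, had chr1:226407896-226408405 (510 bp, score 5.73) in the shMETTL3 list and chr1:226407655-226408424 (770 bp, score 6.27) in the shControl list. Both genes had an interval in all the other RKO lists and in LOVO under olaparib.

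Across 22 gene lists with 535 members, 124 members had no gene-end interval in the shControl list, and 36 of these (29.0%) were gained, beside 8.38% of all genes without one. Of the 72 members without one that had an interval in some other list, 33 were gained (45.8%), beside 29.3% of all such genes. Of the 411 members with an interval in the shControl list 7 were lost (1.7%), beside 1.79% of all genes. The lists were chosen with earlier results of these data known. With the shMETTL3 list reduced to the length of the shControl list, 11 of the 36 gained members stayed gained, namely ZNRF3, LGR5, NKD1, TNFRSF19, RFC1, IRF3, OAS2, INHBA, SYP, RPL11 and RPS6. These are the members with a score of 6.21 or above, the lowest score kept, so the outcome follows from their scores. In that setting 85 members counted as lost. With scores at or above the shControl median (7.88) in both lists, IRF3, INHBA, RPL11 and RPS6 stayed gained and 0 of the 7 lost members stayed lost. This too was fixed by the scores: only those gained members reached the cut, and the lost members scored 4.22 to 6.07. The totals were 60 gained and 21 lost members, which include members whose interval in the other list scored below the cut. No member changed in the lists for m6A erasers and readers, end joining, the damage checkpoint, mitosis and leukocyte markers.

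**Figure D3:**
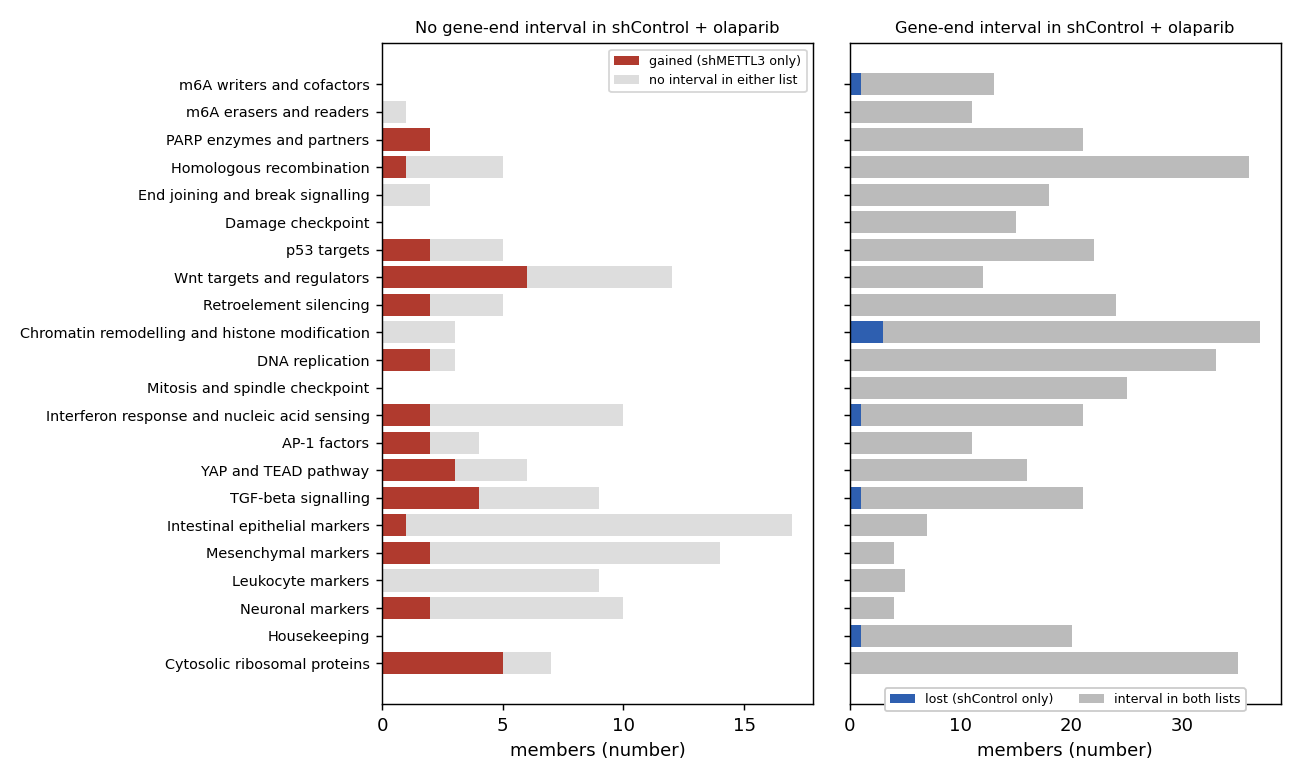
Members of each gene list (number, x axes), with members lacking a gene-end interval in shControl with olaparib on the left (red, gained in shMETTL3; light grey, in neither list) and members having one on the right (blue, lost in shMETTL3; grey, in both). Gains are most numerous among Wnt genes, 6 of 12, and cytosolic ribosomal proteins, 5 of 7, and losses among chromatin regulators, 3 of 37. Over all genes 8.38% of those without an interval were gained (29.3% of those with one in another list) and 1.79% of those with one were lost.

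Among m6A writers and cofactors, all 13 members had an interval in the shControl list and 12 in the shMETTL3 list. The exception was ZCCHC4, whose shControl interval chr4:25312565-25312924 (360 bp, score 6.07) covered the start of the gene. The gene had a gene-end interval in the merged untreated shControl list, none in the untreated list with scores, and one in both olaparib lists of LOVO. The partner of METTL3 in the catalytic core, METTL14, and the adaptor WTAP were kept. Among erasers and readers, 11 of 12 members had an interval in both lists and the remaining one in neither.

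In the list of PARP enzymes and partners no member was lost. PARG, which removes poly(ADP-ribose) chains, gained chr10:49941360-49941518 (159 bp, score 4.0), an interval 509 bp from the start of the gene that also lies at TIMM23B and that no other list of the series had at this gene. Its score lay in the lowest decile of the shMETTL3 list. In homologous recombination, 37 of 41 members had an interval in the shMETTL3 list and 36 in the shControl list, the difference being FANCM with chr14:45135935-45136566 (632 bp, score 4.71). Both untreated shControl lists had an interval at an end of FANCM. The end-joining list stood at 18 of 20 in both lists and the damage checkpoint list, with the kinases ATM and ATR, at 15 of 15 in both.

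Among p53 targets, 24 of 27 had an interval in the shMETTL3 list and 22 in the shControl list. BBC3 gained chr19:47232718-47232864 (147 bp, score 4.85), and both untreated shControl lists and both olaparib lists of LOVO had an interval at an end of this gene. CDKN1A, the cell-cycle inhibitor p21, counted as gained for chr6:36686369-36687172 (804 bp, score 3.87), which lies 160 bp from its far end. The untreated shMETTL3 list also had an interval at an end of CDKN1A. The annotated promoter window of CDKN1A was covered in both olaparib lists.

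Wnt targets and regulators had the most gains, 6 of 12 members without an interval in the shControl list, and no loss. Of all genes without one there, 8.38% were gained, and 29.3% of those with one in another list of the series. These Wnt counts hold for whole lists only. At equal list length 4 members were gained and 5 lost, and with scores at or above the shControl median 0 and 2. ZNRF3, a ubiquitin ligase that removes Wnt receptors, gained chr22:28883399-28883604 (206 bp, score 6.56). LGR5, an R-spondin receptor and marker of stem cells of the gut, gained chr12:71439798-71440233 (436 bp, score 6.46). NKD1, a feedback inhibitor of the pathway, gained chr16:50548199-50548526 (328 bp, score 6.49). The cyclin gene CCND1 gained a weaker interval, chr11:69654666-69654888 (223 bp, score 3.3). It lay 192 bp beyond the gene end with the higher coordinate, and the reference gave no strand for CCND1. The ephrin receptor gene EPHB2 gained chr1:22711326-22711471 (146 bp, score 3.36), 488 bp from its start. TNFRSF19 gained chr13:23675201-23675338 (138 bp, score 7.66), 755 bp from the far end of the gene. The merged untreated shControl list already held an interval at ZNRF3, LGR5, NKD1 and CCND1, and neither untreated shControl list held one at EPHB2 or TNFRSF19.

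Ribosomal protein genes, which most cells transcribe at a high level, showed gains at 5 of the 7 members without an interval, beside 8.38% of all genes. All 7 had an interval in another list of the series, and of all such genes 29.3% were gained. RPS6 gained chr9:19380205-19380522 (318 bp, score 8.35) and RPL11 chr1:23691653-23691827 (175 bp, score 8.12), both over the start of the gene. RPS16 gained chr19:39435897-39436177 (281 bp, score 5.64), RPS27 chr1:153990596-153990786 (191 bp, score 4.02, also at RAB13), and RPL8 an interval of 188 bp with a score of 3.02. All of these genes had an interval in the merged untreated shControl list and in both LOVO olaparib lists, and RPS6 had one in every RKO list but shControl with olaparib.

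Of the 7 lost members 3 were chromatin regulators, out of 37 with an interval in the shControl list (8.11%, beside 1.79% of all genes). No gene of the chromatin list was gained with whole lists, but this depended on the setting. With scores at or above the shControl median in both lists, 8 of its members were gained and 0 lost. At equal list length 0 were gained and 10 lost. SMARCA4, the ATPase of the SWI/SNF remodeller, lost chr19:10960371-10960712 (342 bp, score 5.11), 318 bp from its start, and both untreated shControl lists had an interval at an end of the gene. CHD3, an ATPase of the NuRD complex, lost chr17:7885691-7886292 (602 bp, score 5.87, also at NAA38), with none at this gene in the other RKO lists and the olaparib lists of LOVO. SUZ12, a core subunit of Polycomb repressive complex PRC2, lost chr17:31937204-31937414 (211 bp, score 5.69), 197 bp from its start. In the retroelement silencing list, which bears on the LINE1 question of the series, CBX3, which encodes the heterochromatin protein HP1 gamma, gained chr7:26201085-26201423 (339 bp, score 3.12), an interval shared with HNRNPA2B1. The histone methyltransferase gene EHMT2 gained 2 intervals, the higher scoring at chr6:31896874-31897058 (185 bp, score 3.33, also at C2). Both scores were among the lowest 1.31% of the shMETTL3 list.

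**Figure D4:**
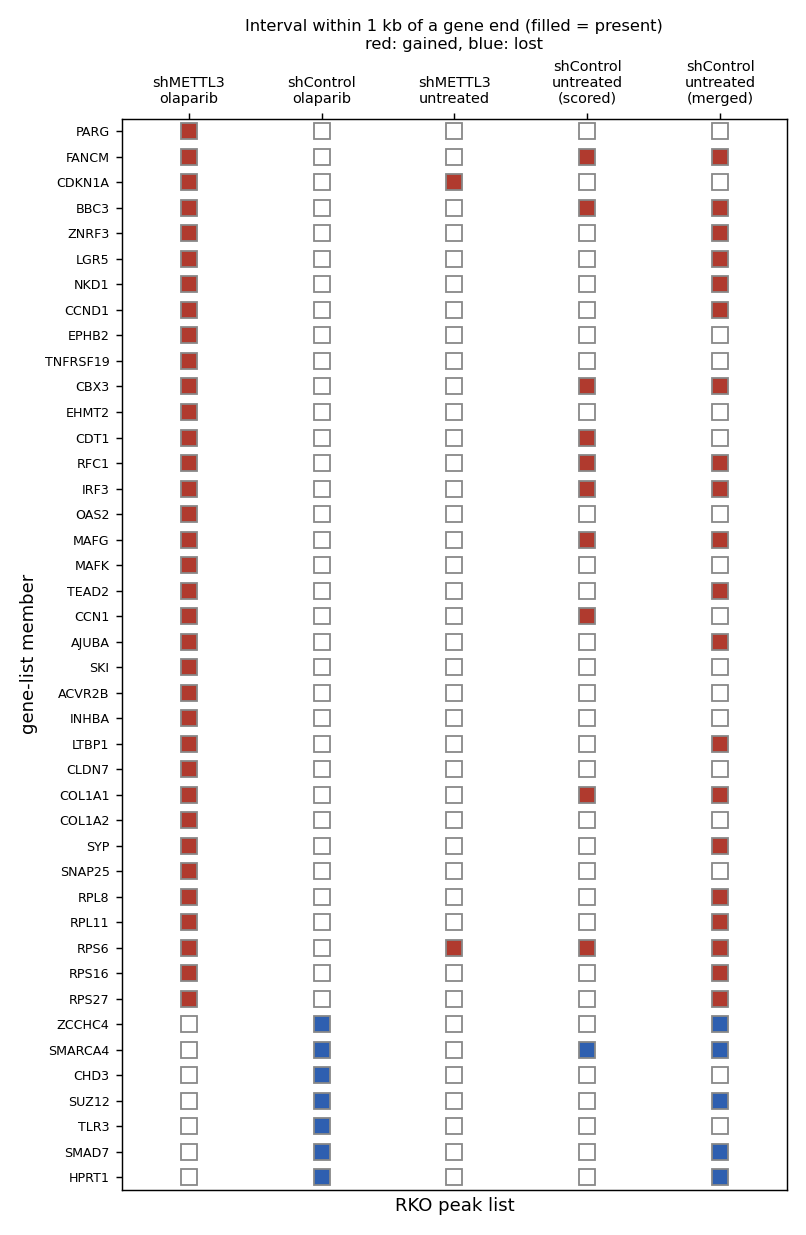
Presence (filled) or absence (open) of a gene-end interval in the 5 RKO lists (x axis) for 35 of the 36 gained members (red) and the 7 lost members (blue) of the gene lists (y axis). Among the gained members shown 22 also have an interval in an untreated shControl list, and CDKN1A and RPS6 have one in the untreated shMETTL3 list.

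The remaining lists changed by a few members each. In DNA replication, RFC1 gained chr4:39366047-39366507 (461 bp, score 7.21), with a gene-end interval in both untreated shControl lists as well. CDT1, which loads the replicative helicase, gained chr16:88804709-88804880 (172 bp, score 4.62), and the untreated shControl list with scores had an interval at an end of this gene. In the interferon list, the transcription factor IRF3 gained 4 intervals, the best at chr19:49665341-49665560 (220 bp, score 8.24, also at BCL2L12). Both untreated shControl lists and both olaparib lists of LOVO had an interval at an end of IRF3. OAS2, a sensor of double-stranded RNA, gained chr12:112978258-112978632 (375 bp, score 6.33), while TLR3, another such sensor, lost chr4:186068116-186068301 (186 bp, score 5.35). Neither untreated shControl list had an interval at OAS2 or TLR3. Of the YAP and TEAD list, TEAD2 (score 4.22), CCN1 (score 3.3) and AJUBA (score 3.91) were gained, and each had an interval in an untreated shControl list. The CCN1 interval lay 425 bp from the gene end with the higher coordinate, and the reference gave no strand for CCN1. In the TGF-beta list, INHBA, which encodes a subunit of activin, gained chr7:41705159-41705378 (220 bp, score 9.69), the highest score among the gained members. The co-repressor gene SKI (score 5.64), the activin receptor gene ACVR2B (score 3.36) and LTBP1 (score 5.25) were gained as well. Among the gained members of this list only LTBP1 had an interval in an untreated shControl list, the merged one. SMAD7, an inhibitor of the same pathway, lost an interval 824 bp from its start (score 4.22) but kept a covered promoter window in both lists.

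Of the AP-1 list, the small MAF genes MAFG and MAFK were gained, MAFG at its far end near SIRT7 (chr17:81918111-81918256, score 5.22) and MAFK with a score of 3.2. The annotated promoter window of MAFG was covered in the shControl list alone. Both untreated shControl lists had an interval at an end of MAFG, and neither had one at MAFK. CLDN7, a tight junction gene, was gained at its far end with a score of 3.85, beside ELP5. Among markers of other cell types, the collagen genes COL1A1 (score 4.08) and COL1A2 (score 5.2) and the neuronal genes SYP (score 6.41) and SNAP25 (score 6.0) were gained. Both untreated shControl lists had an interval at COL1A1, the merged one alone at SYP, and neither at COL1A2 or SNAP25. With these gains 6 of 18 mesenchymal markers had an interval in the shMETTL3 list and 4 in the shControl list. Of the 14 neuronal markers 6 had one in the shMETTL3 list and 4 in the shControl list. HPRT1 was the one housekeeping gene of 20 that was lost, with chrX:134459981-134460448 (468 bp, score 6.04) in the shControl list, and the merged untreated shControl list had an interval at an end of the gene.

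Some loci gathered several gained intervals. When each interval was assigned to the nearest gene end within 50000 bp, 14490 genes had at least 1, of which 6148 (42.4%) had more in the shMETTL3 list and 1287 (8.88%) fewer. DNAJB6, a co-chaperone of HSP70, had 9 intervals in the shMETTL3 list and 2 in the shControl list. Its 8 gained intervals stood within 114.0 kb of chromosome 7 with scores of 3.55 to 9.84, and 3 of them were in an untreated shControl list. ASAP2 had 8 against 2, BCL2L1, which encodes the survival protein BCL-XL, 12 against 6, and TNFRSF10D, a decoy receptor for the death ligand TRAIL, 7 against 1. The RNA helicase gene DDX3X and the olfactory receptor gene OR1F1 had 6 against 1. BLCAP, ERGIC1 and NBDY had 8 against 3, and FRMD8 had 11 against 6. BLCAP, DDX3X, ERGIC1, FRMD8, NBDY and OR1F1 stand first in the alphabet among 10 genes with an increase of 5. At BCL2L1 the 5 gained intervals scored 2.62 to 5.22, whereas one of the 5 at DDX3X reached 14.3.

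Drops were smaller. TRIM27 had 5 intervals in the shMETTL3 list and 8 in the shControl list, and TRIM7, another gene of the TRIM family of ubiquitin ligases, had 4 against 7, the largest drops found. AQP1, a water channel gene, had 0 against 2, and the 2 lost intervals scored 6.51 and 7.32. AQP1, ACTG1, ACTN1, AHDC1, ARHGAP39, ARHGEF1, ATF1 and BCAR1 stand first in the alphabet among 93 genes with a drop of 2. In all, 346 genes had 3 or more extra intervals in the shMETTL3 list and 95 had at least 2 fewer.

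Some gained intervals had high scores, with 280 in the highest decile of the shMETTL3 list. The highest stood in the body of SPTLC3, a gene of sphingolipid synthesis, at chr20:13167312-13167469 (158 bp, score 30.9). KIAA1328 had one with a score of 27.9 (220 bp) and an interval near NID2 scored 26.4 (304 bp). These 3 were also in the untreated shControl list with scores, as was a gained interval at chr18:74746043-74746345 (303 bp, score 26.9). A gained interval between genes at chr17:53106266-53106438 (173 bp, score 26.4) was in none of the untreated RKO lists, but was in a LOVO list. The highest scoring lost interval lay between genes at chr9:13942849-13943030 (182 bp, score 16.3). Other lost intervals with high scores stood near ARHGAP26 (14.4), within 1000 bp of either end of FZD1, which encodes a Wnt receptor (chr7:91265087-91265429, 343 bp, score 13.8), and in CAST (13.5). The highest score of both lists belonged to one region of chromosome 20, chr20:14609938-14610166 with 47.9 in the shMETTL3 list and chr20:14609938-14610170 with 45.3 in the shControl list.

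For intervals in both lists, the order of the scores was largely kept. In 21939 pairs each interval had exactly 1 partner, and each score was turned into a rank percentile over these same pairs. Spearman's rho between the lists was 0.789, as a description across regions of 1 list each. The median rank change (shMETTL3 minus shControl) was -0.21 points over all pairs, -0.6 at gene ends, -0.41 in gene bodies and 0.52 between genes. A rise of 25 points or more was found in 1901 pairs (8.66%) and a fall of that size in 1795 (8.18%). With ranks taken within each whole list instead, 2758 pairs were higher and 1075 lower by that much, so the balance rests on which intervals are ranked. The raw score was higher in the shMETTL3 list in 70.7% of the pairs, with medians of 9.46 and 8.25 for shMETTL3 and shControl.

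**Figure D5:**
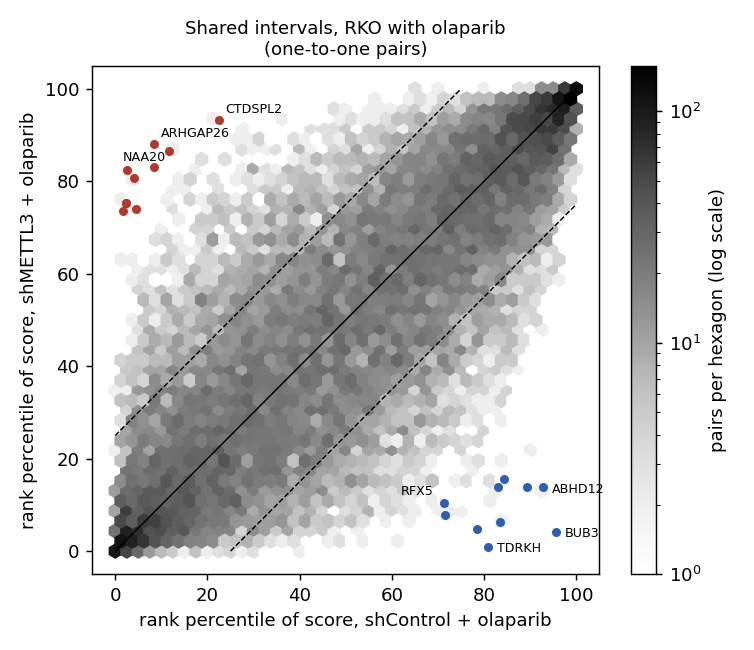
Rank percentile of the score in the shMETTL3 list (y axis) against that in the shControl list (x axis) for 21939 one-to-one pairs, as hexagons shaded by the number of pairs on a log scale; dashed lines mark a change of 25 points, red and blue points the 10 gene-end pairs with the largest rise and the 10 with the largest fall. Most pairs lie near the diagonal, and BUB3 stands farthest below it, at 4.18 in shMETTL3 against 95.5 in shControl.

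Rank changes at gene ends were largest at a few named genes. NAA20, a subunit of an amino-terminal acetyltransferase, had a score of 13.9 in the shMETTL3 list and 3.94 in the shControl list, which are rank percentiles of 82.5 and 2.47. ARHGAP26 (88.1 against 8.42), the interval at FAM117A and the histone acetyltransferase gene KAT7 (80.8 against 3.97), B9D2 and TMEM91 (86.6 against 11.7) and CD8A (83.0 against 8.41) also stood higher in the shMETTL3 list. SH3RF1, BRD10, MACROD2 with SEL1L2, CTDSPL2 and PALS1 completed the 10 largest rises, the last by 69.3 points.

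The largest fall was at BUB3, a spindle checkpoint protein, with a score of 4.44 in the shMETTL3 list and 15.2 in the shControl list, rank percentiles of 4.18 and 95.5. The intervals had nearly the same extent, chr10:123154755-123155133 (379 bp) in the shMETTL3 list and chr10:123154738-123155095 (358 bp) in the shControl list. TDRKH, which takes part in piRNA biogenesis, stood at 0.93 in the shMETTL3 list against 80.9 in the shControl list, ABHD12 at 13.8 against 92.7, PTK6, an epithelial tyrosine kinase gene, at 6.29 against 83.4, and RDH5 at 13.8 against 89.2. LRP10, UGP2 with WDPCP, MPG with NPRL3, MRPL52 and RFX5 followed, RFX5 with -60.9 points. MPG, a glycosylase of base excision repair, stood at 15.6 in the shMETTL3 list against 84.4 in the shControl list.

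Promoters that changed resembled the promoters that were kept in base composition and differed from them in some motifs. Of 22199 promoter windows of 300 bases, 1004 were covered in the shMETTL3 list alone, 379 in the shControl list alone and 9302 in both. The median content of G and C was 66.7% in gained, 68.3% in lost and 66.3% in kept windows, against 56.7% in the 11514 windows covered in neither list. The ETS motif stood in 15.2% of gained, 10.3% of lost and 22.6% of kept windows, and the CCAAT box (CCAAT or ATTGG) in 26.3%, 22.2% and 39.5%. The AP-1 motif was found in 3.39%, 2.9% and 2.99%, the TEAD motif (GGAATG or CATTCC) in 11.7%, 11.1% and 9.97%, and the GC box (GGGCGG or CCGCCC) in 70.5%, 72.8% and 75.5%, in the same order. Over all windows, 34.7% held the CCAAT box, 12.2% the TEAD motif and 56.3% the GC box. A match says that these letters stand in the window, not that a factor bound there.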

How the data were processed

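ATAC-seq libraries were made with a commercial kit, per the labels' protocols. The tools MACS2 2.2.7.1, DiffBind 3.0.15, Bowtie2 2.4.2 and Trim Galore 0.6.6 and the build hg38 are named, with no roles, per the submitters' processing notes. Any shift of reads for the cut of the transposase, any filter on reads and the way samples of a group were combined are not given in the sources used here. From their reads the authors deposited 10 peak lists, 1 for each group and 2 for untreated shControl of each line, with coordinates, a peak name and a score in both lists compared here, whose MACS2 column is not stated. The peak names are those of replicate 1 in both lists. In the shMETTL3 list 1103 of 34311 names stood on several intervals and in the shControl list 282 of 25570, so the intervals are not peaks as first called, but the step is not stated. The untreated shMETTL3 list and 1 of the untreated shControl lists (called merged) hold intervals only. The labels do not say which untreated shControl list the batch2 samples went into. No count table and no columns other than these were used.

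Intervals were compared by overlap of at least 1 bp, in Python 3.11.15 with numpy 2.4.6, pandas 2.3.3 and scipy 1.17.1, and the code was tested on simulated lists. Shares carry 95% exact (Clopper-Pearson) intervals. Genes and promoter windows come from RefSeq tables on GRCh38, which is hg38, with 15843 of 20037 protein-coding genes and 417 of 535 list members having a promoter window. Strand is known only for genes with one, and the parts of a gene body were not distinguished. No count model and no p-value was computed.

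The members and the gene lists were chosen with earlier results of these data known. Named are METTL3 and PARP1, list members gained or lost (up to 6 per list and state), the 10 genes with the largest increase and the 10 with the largest drop in assigned intervals (ties by symbol), the 10 gene-end pairs with the largest rise and the 10 with the largest fall in rank, the 5 gained and 5 lost intervals with the highest score, and the highest and the widest interval of each list. Genes kept in both lists that are named as examples, the motifs and the gene families were chosen after values were seen. A gene that the rule names is not reported here. Alternatives changed the score threshold, list length, overlap, joining and gap of intervals, gene window and ranking.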

Additional observations from a re-analysis of the deposited data

How the results depend on the processing

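List length and score threshold moved the counts of gained and lost intervals and genes by more than 1.5 times. With the shMETTL3 list reduced to its 25855 highest scores (6.21 or above), 6383 intervals were gained and 6700 lost, and 350 genes gained and 1566 lost, against 11723, 2707, 800 and 188 for the whole lists. Shortening one list can only take away gains and add losses. With only scores at or above the median of the shControl list in both lists (19254 shMETTL3 and 12931 shControl intervals), 7789 intervals were gained and 1658 lost, and 1891 genes gained and 487 lost. These counts include intervals and genes whose partner in the other list scored below the cut, so they are not a subset of the counts for whole lists. Of the 36 gained gene-list members 11 were still gained at equal length and 4 above the score threshold, where 0 of the 7 lost members were still lost. These member counts follow from the members' own scores and are no separate check. Asking for overlap of 50% of an interval gave 12941 gained and 3919 lost intervals. Joining intervals within 150 bp gave 11688 and 2707, a gap of 250 bp counted as shared 11289 and 2514, a promoter window in place of gene ends 686 gained and 231 lost genes, and a window of 2500 bp 858 and 205. Pairs moved by 25 points numbered 3696 (1901 up and 1795 down), 3833 with ranks over whole lists (2758 up and 1075 down) and 3457 with overlap of 50% of both intervals. No paired analysis was possible because both groups compared have 1 list each and no list has a column per sample. Depth is unknown, and scores of the lists were not brought to a common scale, so both alternatives of list length and score depend on a scale that may differ between lists. The cause of the longer shMETTL3 list was not tested.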

Other observations

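Gene families outside the lists above, chosen after their values were seen, showed gains in different shares of the members without a gene-end interval in the shControl list, beside 8.38% of all genes. Among all genes that lacked one there but had one in another list of the series, the share was 29.3%. The families were not split that way, so 8.38% is a low base for families with an interval in most lists. Proteasome subunits gained 3 of 7, at PSMB4, PSMB6 and PSMD1, and lost 0 of 43. Zinc finger genes with ZNF symbols gained 25 of 168 (14.9%) and lost 4 of 349 (1.15%, beside 1.79% of all genes). Olfactory receptor genes, which are silent in most tissues, gained 8 of 388 (2.06%), and core histone genes gained 1 of 27, H4C2. Keratins gained 3 of 52, at KRT72, KRT23 and KRT13, and collagens 4 of 40, at COL20A1 and COL6A1 beside COL1A1 and COL1A2.

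The HOX genes, which set positional identity, moved in both directions. Of the 21 without a gene-end interval in the shControl list, HOXB7, HOXB8, HOXD9 and HOXA7 were gained (19.0%, beside 8.38% of all genes), and of the 19 with one HOXD8 and HOXA11 were lost (10.5%, beside 1.79%), so that 21 of 40 had a gene-end interval in the shMETTL3 list and 19 in the shControl list. Nuclear genes of the mitochondrial ribosome gained 2 of 10, MRPS7 and MRPL36, and lost 1 of 67, MRPL12. These families hold few changed members each, and none of these shares was tested.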
